A study of Caenorhabditis elegans with 2 samples.

Results

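The regions described here are the ChIP-seq peaks on the X chromosome of Caenorhabditis elegans, taken as every peak that the deposited lists place on X. The pooled relaxed list, made from both replicates together, held 5560 X peaks among its 30000 peaks. The relaxed lists of replicate 1 and replicate 2 held 5239 and 5714 X peaks, each among 30000. The list thresholded by the irreproducible discovery rate held 14 X peaks and 101 on the autosomes. Those 14 are the X peaks with the highest pooled signal, a peak height that the authors give on an unstated scale, and all ranks below are by that signal, with rank 1 the strongest. The strongest peaks of a replicate, as many as the thresholded list holds, are called its top set. The samples were whole larvae of strain OP643, which carries wgIs643, an inserted hlh-17 tagged with TY1, EGFP and 3xFLAG together with unc-119(+), in an unc-119(tm4063) background. They were first-stage (L1) larvae of 6 h, starved after bleaching and labelled as mixed sex. Chromatin sheared to 200 to 800 bp was recovered with an antibody to the green fluorescent tag. The 2 biological replicates form 1 group and share a control, so no comparison of conditions was possible. What a peak shows is at most where the product of an added transgene was recovered, averaged over all cells of many animals. The relaxed lists are labelled as peaks and background, so a relaxed peak is not by itself a site of binding. Of the 5560 X peaks in the pooled relaxed list, 586 had no summit of either replicate within 100 bp.

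HLH-17 belongs to the Olig branch of the basic helix-loop-helix factors, is known from glia of the worm head, and its class of proteins binds the E-box, CANNTG. The X chromosome differs from the autosomes in that hermaphrodites carry a pair and males a single copy. In hermaphrodites the dosage compensation complex, related to condensin, loads at recruitment sites on X, spreads along it and lowers its transcription. The label gives the sex as pooled male and female, the share of males is not known, and the part of X copy number in the values below was not tested.

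The reference sequences (WBcel235, the assembly that ce11 denotes, forward strand) within 50 bp of 8 thresholded X summits show what the X peaks were made of. The first pair are the X peaks of best rank, and those of ranks 65, 71, 95 and 100 ranked within 4 times of each other in the replicates. Rank 81 held the most E-boxes, and rank 106 held a word of the sites that recruit the dosage compensation complex. These last 2 were chosen after their values were seen. Capitals mark E-boxes (CANNTG), except in the last sequence, where they mark CGCAGGG. The sequence of rank 100 held no E-box.

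Rank 14, chrX:1503868-1503968, beside tts-1: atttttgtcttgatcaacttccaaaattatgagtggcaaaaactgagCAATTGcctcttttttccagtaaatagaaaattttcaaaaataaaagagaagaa
Rank 18, chrX:11606140-11606240, at ftt-2: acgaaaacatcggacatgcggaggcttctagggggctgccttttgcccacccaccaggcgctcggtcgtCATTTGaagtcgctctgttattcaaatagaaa
Rank 65, chrX:13144586-13144686, at cel-mir-55 and cel-mir-56: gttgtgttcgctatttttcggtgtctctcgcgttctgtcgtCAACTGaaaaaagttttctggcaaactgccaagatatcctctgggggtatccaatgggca
Rank 71, chrX:767811-767911, at trap-2 and ile-2: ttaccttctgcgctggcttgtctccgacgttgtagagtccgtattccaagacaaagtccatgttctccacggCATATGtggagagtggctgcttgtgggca
Rank 81, chrX:3631670-3631770, near gst-11: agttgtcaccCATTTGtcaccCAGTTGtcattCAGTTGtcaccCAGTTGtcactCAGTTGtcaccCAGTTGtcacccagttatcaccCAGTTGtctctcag
Rank 95, chrX:2871185-2871285, at F53B3.3: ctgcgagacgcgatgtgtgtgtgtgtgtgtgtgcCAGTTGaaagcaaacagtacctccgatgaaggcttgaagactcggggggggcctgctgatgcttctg
Rank 100, chrX:14614463-14614563, in rbc-1: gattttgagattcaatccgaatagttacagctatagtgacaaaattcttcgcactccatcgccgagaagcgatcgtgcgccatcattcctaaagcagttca
Rank 106, chrX:6296517-6296617, in mom-1: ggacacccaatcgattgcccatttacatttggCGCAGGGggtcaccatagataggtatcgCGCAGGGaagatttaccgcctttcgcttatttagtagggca

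These sequences differ in kind. Rank 14 is AT-rich (27.7% G and C) and has 19 further copies in the genome, counted at 90% identity or more over at least 50 bp. Each alignment clear of the printed sequence counted as a copy, and overlapping alignments were not merged. A tandem repeat can therefore count more than once. Rank 81 is such a repeat, with 7 E-boxes in 101 bp and 23 further alignments. Rank 95 carries an alternating GT stretch, an E-box and an uninterrupted run of G. Besides ranks 14 and 81, the other 6 have no further copy by the same rule. Among all thresholded peaks, 2 of 14 on X had a further copy (14.3%, 95% interval 1.78 to 42.8) and 11 of 101 on the autosomes did (10.9%, 5.56 to 18.7).

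Peaks at the very top of the ranking were few on X, while its share further down came near that of its length. X makes up 17.7% of the genome's length and 13.7% of its protein-coding genes, with 154 such genes per Mb against 188 to 239 on the 5 autosomes. It held 18.5% of the pooled relaxed peaks (95% interval 18.1 to 19.0), 17.5% of those of replicate 1 and 19.0% of those of replicate 2. Per Mb this was 314 pooled peaks, within the 269 to 325 of the autosomes. The thresholded list comprised 0.383% of the pooled peaks, and the 14 X peaks in it were 12.2% of that list (6.82 to 19.6). At 0.790 thresholded peaks per Mb, X was the lowest of the 6 chromosomes, the autosomes lying between 0.860 and 1.52.

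The place of X in the ranking differed by depth of list. Among the first 58 pooled peaks X had 2 (3.45%, 0.420 to 11.9), where each autosome had 11 or 12. Replicate 1 had 4 X peaks among its first 58 (6.90%, 1.91 to 16.7) and replicate 2 had 3 (5.17%, 1.08 to 14.4). X was thus below each autosome in the first 58 of all 3 lists. It was also below each in the first 500, with 68, 64 and 59 peaks (13.6, 12.8 and 11.8%), which include the first 58. From rank 59 on, the thresholded list had 12 X peaks, where chromosomes I to V had 7, 8, 9, 14 and 7. In that list X was therefore lowest within the first 58 but not from rank 59 on. Over the same later ranks replicate 1 had 13 X peaks and 44 autosomal ones, and replicate 2 had 6 and 51. In the top sets the replicates differed: that of replicate 1 had 17 X peaks (14.8%), more than 2 of the autosomes, and that of replicate 2 had 9 (7.83%, 3.64 to 14.3), fewer than each. Among the first 1000, 1 autosome was below X in each list. In the first 5000 X held 17.1% of the pooled peaks (16.0 to 18.2), 15.6% of those of replicate 1 (14.6 to 16.7) and 18.7% of those of replicate 2 (17.6 to 19.8), where its share of the length is 17.7%. The difference between X and the autosomes at the top was not tested, because peaks of 1 library are not replicates.

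**Figure D1:**
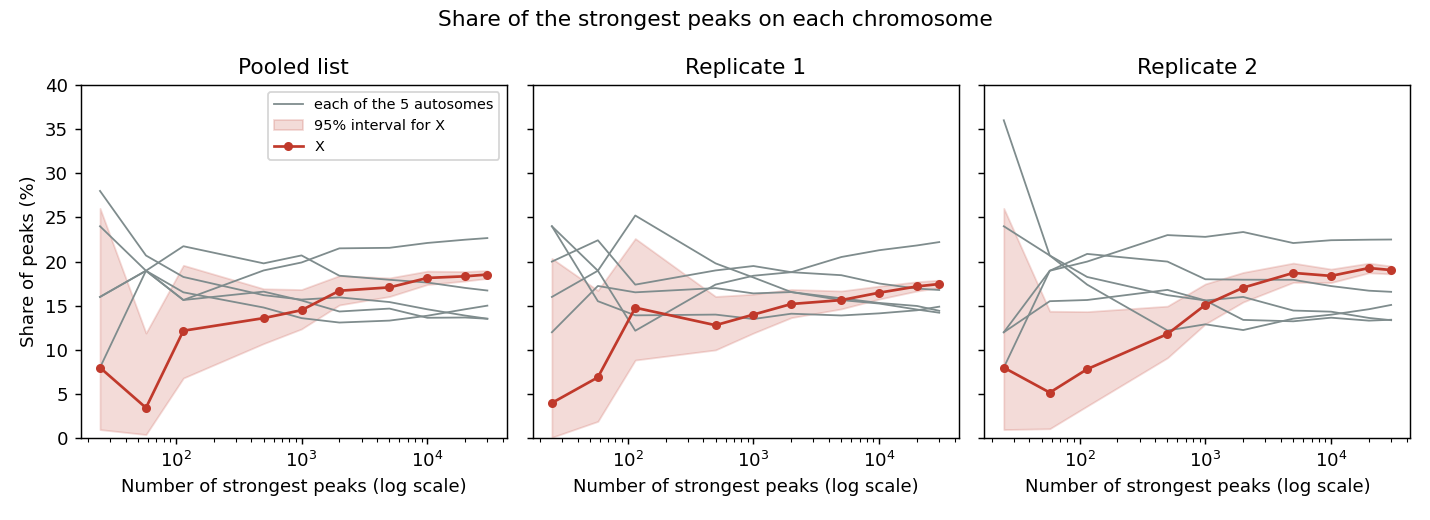
Share of the strongest peaks that lay on each chromosome (y axis, percent) against the number of strongest peaks counted (x axis, log scale), in the pooled list and in each replicate. Red is X with its exact 95% interval and grey lines are the 5 autosomes. X starts lowest or level with the lowest in all 3 lists and reaches 18.5, 17.5 and 19.0% at 30000 peaks.

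Over the whole relaxed list, X peaks ranked like those of other chromosomes. The median pooled rank of X peaks was 15018 (95% interval 14722 to 15362), between the autosomal medians of 14206 and 15804. In the replicates it was 15381 and 15023.5. Within the thresholded list X peaks stood lower, with a median rank of 78.5 against 37 to 66 for the autosomes. The last X peak inside that list had rank 106 and signal 148, and the first outside it had rank 120 and signal 145.

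The strongest X peak, and the only X peak with a summit within 100 bp in the top sets of both replicates, lay beside tts-1. This gene encodes a long non-coding RNA that is abundant in long-lived worms and associates with ribosomes. The peak (rank 14, chrX:1503726-1504109) had a pooled signal of 257 and signals of 112 and 149 in replicates 1 and 2, where it ranked 11 and 20 with summits at the same base. Signals of different lists are not on one scale, so only the ranks can be set side by side. The summit lay 923 bp downstream of the tts-1 start, past the end of the gene, in the repeated AT-rich sequence printed above. A neighbouring X peak, rank 64 (chrX:1504530-1504913, pooled signal 166), lay inside tts-1, 119 bp downstream of its start, and also in the start windows of the non-coding genes F09E10.10 and F09E10.14. It ranked 45 in replicate 2 (signal 126), and the nearest summit of replicate 1 was 113 bp away with rank 4334. Counted as 1 locus, as peaks within 1000 bp were in an added count, this pair leaves 13 thresholded X loci among 111 in all (11.7%).

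Protein-coding gene starts held 3 of the 14. A start window begins 1000 bp upstream of a gene's start and ends 300 bp downstream of it. The peak of rank 18 (chrX:11605998-11606381, signal 232) lay 771 bp upstream of ftt-2, which encodes a 14-3-3 adaptor protein, and inside the short non-coding gene F52D10.9, with F52D10.7 and F52D10.12 also in reach. It ranked 68 in replicate 1 (signal 67.2). In replicate 2 a strong peak of rank 13 (signal 162) had its summit 118 bp away, outside the 100 bp allowed, so the ftt-2 peak counts as absent there only by that rule. Rank 71 (chrX:767669-768052, signal 159) lay 208 bp inside trap-2, for a subunit of the complex beside the protein-conducting channel of the endoplasmic reticulum, and 735 bp upstream of ile-2, named for an intracellular lectin. It was strong in both replicates, at ranks 80 and 169 (signals 64.9 and 97.3). Rank 95 (chrX:2871043-2871426, signal 151) lay 98 bp upstream of F53B3.3 and ranked 368 and 319 (signals 51.1 and 90.8).

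Start windows of microRNA genes held another. Rank 65 (chrX:13144444-13144827, signal 165) lay in the start windows of cel-mir-56, cel-mir-55 and the antisense cel-mir-55b, inside the protein-coding gene F09A5.3. Its summit was 151 bp downstream of the cel-mir-56 start and 288 bp downstream of the cel-mir-55 start, past the end of both. It was 194 bp upstream of cel-mir-55b. The microRNAs of cel-mir-55 and cel-mir-56 belong to the mir-51 family, which is broadly expressed and needed for embryonic development. The replicates ranked this peak 69 and 231 (signals 67.2 and 93.9), with the summit of replicate 2 at the same base and that of replicate 1 17 bp away.

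Gene bodies held 5 of the 14, at ranks unlike between the replicates except at rbc-1. In rbc-1, named for a rabconnectin that acts with the vacuolar proton pump, an exonic peak (rank 100, chrX:14614321-14614704, signal 149) ranked 348 and 206. The intronic peak in mom-1 (rank 106, chrX:6296375-6296758, signal 148) ranked 4584 in replicate 1 and last in the top set of replicate 2. Its gene encodes the Porcupine enzyme that lipid-modifies Wnt ligands. An intronic peak of ZK470.2 (rank 94, chrX:4142214-4142597, signal 151) had the opposite order, 32 and 5064. Intronic peaks of F35H12.1 (rank 89, chrX:935874-936257, signal 153) and F59D12.3 (rank 103, chrX:15650386-15650769, signal 148) ranked 642 and 110, and 2499 and 87, respectively. Of these 5, only the ZK470.2 peak ranked higher in replicate 1.

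The remaining 3 were intergenic, away from start windows. Rank 63 (chrX:9465418-9465801, signal 167) lay 2108 bp upstream of the non-coding ZK899.10 and ranked 1124 and 90. Rank 76 (chrX:6253809-6254192, signal 157) lay past the end of the non-coding W05H9.3 and ranked 104 in replicate 1, while the nearest summit of replicate 2 was 778 bp away. The repeat peak of rank 81 (chrX:3631528-3631911, signal 155) lay 2034 bp from the start of gst-11, named for a glutathione S-transferase, past its end, and ranked 61 and 1096. Each of these 3 was thus in the top set of 1 replicate and below rank 1000 or without a summit in the other.

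**Figure D2:**
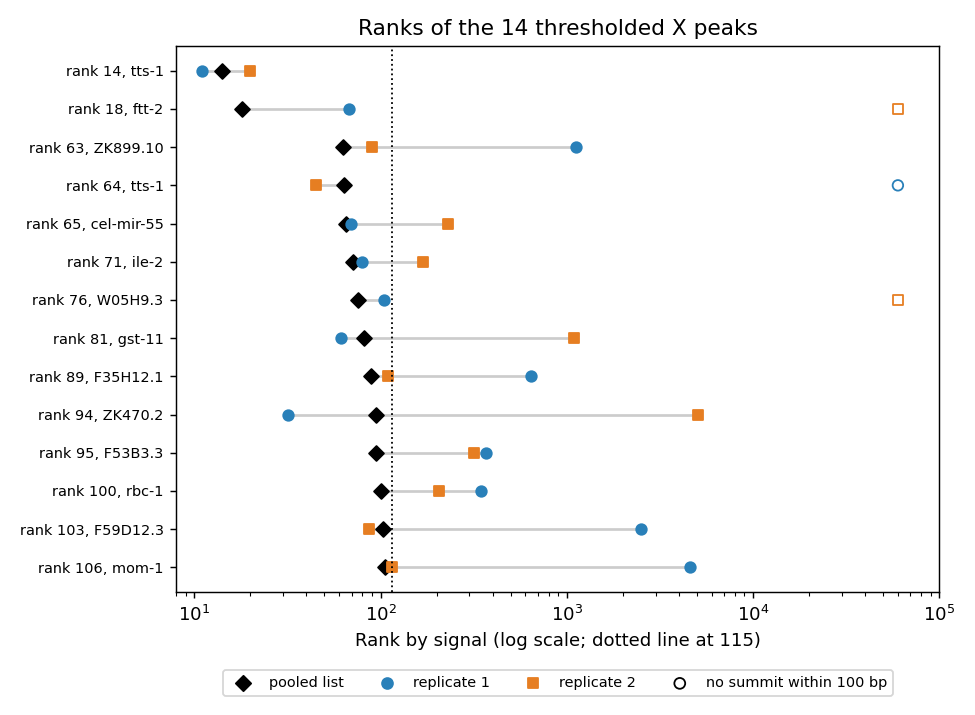
Rank (x axis, log scale) of each of the 14 thresholded X peaks in the pooled list, replicate 1 and replicate 2, with 1 row for each peak and its pooled rank and a gene there or nearby. Open symbols at the right, at a position of no meaning on the axis, mark replicates with no summit within 100 bp. In 1 row, that of rank 14 beside tts-1, both replicates lie left of the dotted line, which marks the size of the thresholded list.

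Most thresholded X peaks were found in both replicates. The list was made by agreement between these same replicates, so this recovery was partly set by the choice of peaks. A peak counted as found when a replicate's summit lay within 100 bp. Of the 14 X peaks, 13 were found in replicate 1, 12 in replicate 2 and 11 in both (78.6%), and 13 were found in both within 200 bp. Of the 101 autosomal peaks, 92, 98 and 89 were found (88.1% in both), and 101 within 200 bp. The top set of replicate 1 held 7 of the X peaks, that of replicate 2 held 6, and both held 1. For the autosomes these counts were 53, 71 and 39. With summits within 200 bp, both top sets held 2 of the X peaks, that at ftt-2 being the second, and 43 of the autosomal ones. An estimated q of 1 or less in the authors' column, where q can exceed 1, applied to 2 X peaks (ranks 14 and 18) and 36 autosomal ones. From rank 59 of the thresholded list on, both top sets held 0 of 12 X peaks and 0 of 45 autosomal ones within 100 bp (0 and 1 within 200 bp). Among the first 58 they held 1 of 2 X peaks and 39 of 56 autosomal ones. Pooled rank rests on both replicates, so these counts by rank are partly set by the ranking.

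Starting from the replicates, strong X peaks were found high in the other replicate in a smaller share than autosomal ones, though not found less at any rank from replicate 2. Of the top set of replicate 1, 17 peaks lay on X, and 3 of these were among the first 1000 of replicate 2 (17.6%, 3.80 to 43.4), against 53 of 98 on the autosomes (54.1%, 43.7 to 64.2). Of the top set of replicate 2, 9 lay on X, and 2 were among the first 1000 of replicate 1 (22.2%, 2.81 to 60.0), against 53 of 106 (50%, 40.1 to 59.9). At any rank, 11 of the 17 X peaks (64.7%) and 75 of the 98 autosomal ones (76.5%) of replicate 1 were found in replicate 2. In the other direction 7 of 9 (77.8%) and 80 of 106 (75.5%) were found. Both directions use the same libraries, and both top sets held 39 autosomal peaks in common but only 1 X peak. The directions are therefore not independent evidence. From rank 59 to the end of the top set, the counts in the first 1000 were 2 of 13 against 14 of 44 in replicate 1, and 1 of 6 against 14 of 51 in replicate 2. The word CCTCTC lay at 23 of 101 autosomal thresholded summits (22.8%) and 0 of 14 on X, which allows up to 23.2%, and over all pooled peaks at 3.53 and 3.74%. Without peaks that hold it, in a count added after its values were seen, the autosomal shares were 47.4 and 45.3% and those of X 18.8 and 22.2%. Whether X differs was not tested.

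Several strong X peaks of a single replicate were low or not found in the other. In replicate 1 the peak of rank 49 (summit at X 6743025, signal 72.5) had no summit within 100 bp in replicate 2 or the pooled list. That of rank 56 (summit at X 15388550, signal 70.9) was found in replicate 2 at rank 28773. In replicate 2 the peak of rank 62 (summit at X 17289098, signal 113), which has 40 further genome copies, was found in replicate 1 at rank 27070.

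Over the full relaxed list, recovery was alike on X and the autosomes to within a few percentage points, and the replicates differed in sign. Of all pooled relaxed peaks, 27.0% had a summit of both replicates within 100 bp, and of the X peaks 1457 did (26.2%, 25.1 to 27.4), against 27.1% of the autosomal ones (26.6 to 27.7). The difference was −0.931 percentage points, with a Newcombe 95% interval of −2.20 to 0.366. In replicate 1 alone 44.9% of X peaks were found, below the 46.6 to 48.8% of each autosome, a difference of −2.83 points (−4.28 to −1.38) from the autosomes together. In replicate 2 alone 70.8% were found, above the 68.7 to 69.6% of each autosome, a difference of 1.64 points (0.297 to 2.95). These intervals treat peaks as independent and leave out variation between libraries. X also held the larger share of the replicate 2 list, 19.0 against 17.5%, and the part of this in the recovery was not tested.

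**Figure D3:**
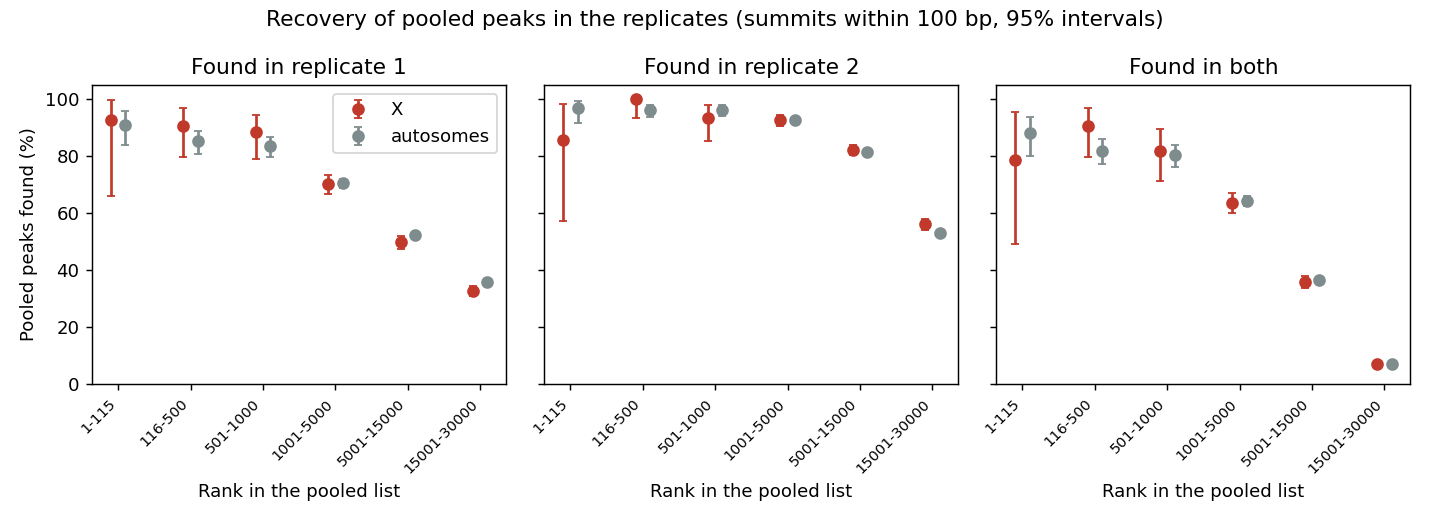
Share of pooled peaks found (y axis, percent, summits within 100 bp) in replicate 1, in replicate 2 and in both, by rank bin of the pooled list (x axis), for X in red and the autosomes in grey with exact 95% intervals. The share found in both fell from 78.6 (X) and 88.1% (autosomes) at ranks in the thresholded list to 6.93 and 7.08% in the last 15000 ranks.

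Recovery fell with pooled rank alike on X and the autosomes. The pooled signal comes from both replicates together, so a fall of recovery with rank is partly built into the ranking. Between the thresholded list and rank 500, 90.7% of X and 81.9% of autosomal peaks were found in both replicates, and between ranks 501 and 1000 these shares were 81.8 and 80.4%. They were 63.6 and 64.2% from there to rank 5000, and 35.9 and 36.6% from there to rank 15000. X was thus the higher in 2 of the 6 bins and the lower in 4.

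Thresholded X summits lay less in promoters than autosomal ones, with wide intervals. The start windows of protein-coding genes held 3 of 14 on X (21.4%, 4.66 to 50.8) and 51 of 101 on the autosomes (50.5%, 40.4 to 60.6), where single autosomes ranged from 33.3 to 61.9%. These windows cover 19.0% of the bases of X and 24.0% of those of the autosomes. Introns held 4 X peaks, intergenic sequence 4, starts of non-coding genes 2, an exon 1 and tRNA gene starts 0. Because X peaks stood low in the list, thresholded ranks from 59 were also counted alone. This gave 2 of 12 on X (16.7%) and 18 of 45 on the autosomes (40%), where single autosomes ranged from 14.3 to 57.1%. Chromosome I, with 1 of 7, was below X there, and the other autosomes were above it. In the top set of replicate 1 the counts were 6 of 17 (35.3%) and 48 of 98 (49.0%). In that of replicate 2 they were 1 of 9 (11.1%) and 46 of 106 (43.4%). Single autosomes ranged from 31.6 to 64.3% in replicate 1, where chromosome I alone was below X. They ranged from 25 to 52.4% in replicate 2, each above X. The difference in promoter share was not tested.

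Most relaxed X peaks lay in exons, introns or promoters. Promoters held 18.6% of all pooled X peaks, near their share of X bases, and 22.6% of autosomal ones. Exons held 30.6% of X peaks on 19.6% of its bases, and intergenic sequence 15.9% on 23.2%. On the autosomes exons also held more peaks (33.6%) than any other class. Start windows of tRNA genes held 1.24% of X peaks, near their 1.38% of X bases, and 0.372% of autosomal peaks. Along X, cut into 5 equal parts from left to right, the pooled peaks numbered 1114, 1107, 1069, 1141 and 1129. The first 1000 pooled peaks had 32, 34, 18, 26 and 35 X members in those parts, and the thresholded list 5, 4, 1, 2 and 2.

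**Figure D4:**
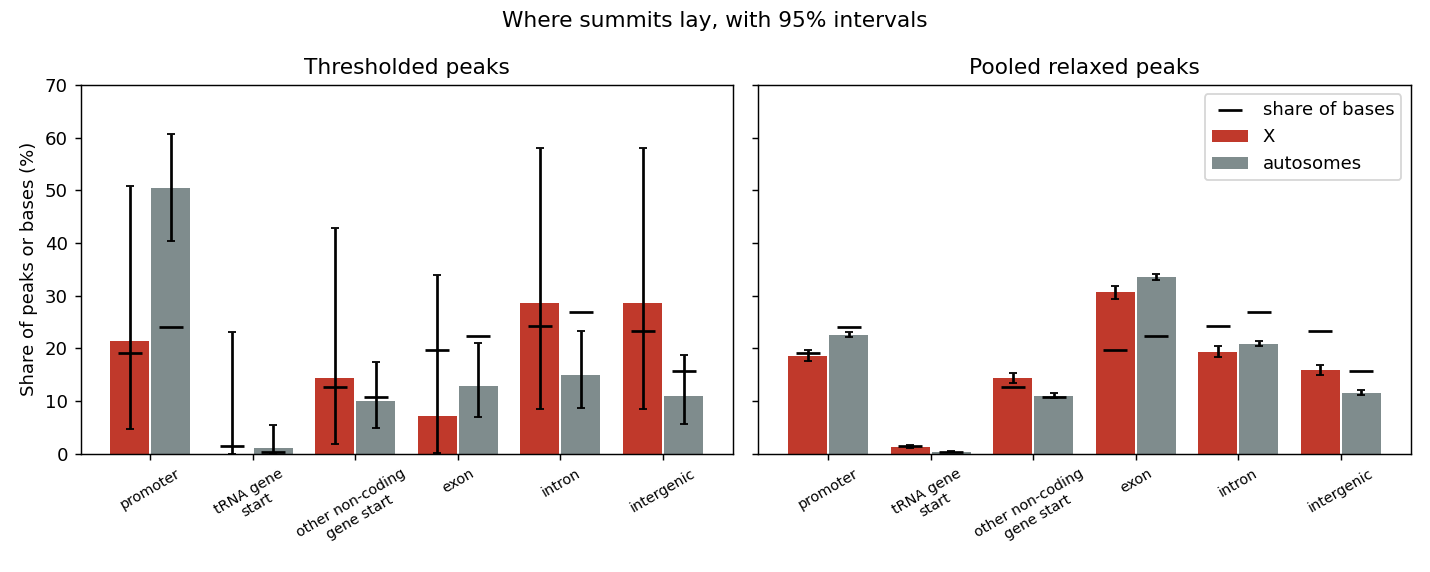
Share of summits in each location class (y axis, percent) for thresholded and pooled relaxed peaks, with X in red, the autosomes in grey and exact 95% intervals. Black dashes give the share of bases in each class. In promoters the thresholded bars stand at 21.4% (X) and 50.5% (autosomes), and the relaxed bars at 18.6 and 22.6%.

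By gene, 4 of the 956 X-linked protein-coding genes with any relaxed peak in their start window had a thresholded one (0.418%, 0.114 to 1.07), and 69 of 5444 autosomal ones did (1.27%, 0.987 to 1.60). A relaxed peak was present at 956 of all 2731 X-linked protein-coding genes (35.0%) and at 5444 of 17242 autosomal ones (31.6%). The 4 genes with a thresholded peak were ftt-2, trap-2, ile-2 and F53B3.3, at 3 peaks.

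Genes that count and compensate the X chromosome had 0 thresholded peaks in their start windows, where few genes of any kind had one. Of all protein-coding genes, 35.0% on X and 31.6% on the autosomes had a relaxed peak, inside the intervals of the small lists below. A thresholded peak lay at 4 of 2731 on X and 69 of 17242 on the autosomes. At so low a share, 0 in lists this short says little about these genes. Of 10 genes of the dosage compensation complex, 2 of which lie on X, 2 had a relaxed peak (20%, 2.52 to 55.6) and 0 a thresholded one. They were dpy-27, for its specialised SMC protein (rank 12930, and rank 14856 in replicate 1), and capg-1, for a condensin subunit (rank 17318, and rank 3742 in replicate 1), and neither was found in replicate 2. Of the X signal elements, which report the number of X chromosomes, 3 of 4 were matched by name. The nuclear receptor gene sex-1 had a peak of rank 11828 (10918 and 21074 in the replicates). The gene for the splicing factor FOX-1 had none at its start, but the peak of rank 154 (signal 139; ranks 184 and 1366) lay in its body, at the non-coding R04B3.7, 190 bp downstream of that gene's start. The homeobox gene ceh-39 had none. Of 12 sex determination genes, dmd-3 and tra-1, both for transcription factors, had peaks of ranks 21868 and 23641 (16.7%, 2.09 to 48.4). The dmd-3 peak was found in replicate 1 only, at rank 22221, and the tra-1 peak in neither replicate.

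Small RNA genes on X had relaxed peaks at 30.3 to 66.7% of their number, by type, and thresholded ones at a single place. A thresholded peak lay at 3 of 74 microRNA, 0 of 276 tRNA, 0 of 33 snoRNA and 0 of 3 snRNA genes on X. On the autosomes these counts were 1 of 187, 1 of 336, 5 of 313 and 7 of 126. Relaxed peaks lay at 30 of 74 microRNA genes (40.5%), where the autosomes had 77 of 187 (41.2%), and the 3 thresholded ones share the peak of rank 65. The next was cel-mir-4807 at rank 4869. X carries 276 of the tRNA genes, and 92 of these (33.3%) had a relaxed peak, with 0 in the first 1000, the best having rank 1039. Of the 336 autosomal tRNA genes 124 (36.9%) had one, 12 of them in the first 1000. Of 33 snoRNA genes 10 had a peak, F52G3.6 the best at rank 376 (4787 and 688 in the replicates), and of 3 snRNA genes 2 did, at ranks 24617 and 26430. On the autosomes 121 of 313 snoRNA genes (38.7%) and 50 of 126 snRNA genes (39.7%) had one. The median best rank was 5630.5 for X and 6666 for autosomal snoRNA genes, and 14108.5 and 14029 for tRNA genes.

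Of the 10 X peaks just below the thresholded list, that of rank 207 (263 and 709, in ZK470.2) ranked within 4 times in the replicates. Rank 120 (signal 145) lay in an exon of lgx-1 and ranked 4556 and 99. Rank 165 lay by the non-coding K02G10.9 (114 and 1252), rank 170 in an intron of pqn-18 (4244 and 165), and rank 188 in an exon of lgc-25, named for a ligand-gated ion channel (95 and 2390). Rank 204, 163 bp upstream of the stomatin gene sto-4, lay in sequence with 646 further copies, and ranked 1620 in replicate 2. In replicate 1 a peak of rank 60 had its summit 122 bp away, just past the 100 bp allowed. ZK470.2 also holds the thresholded peak of rank 94. Rank 218 lay in W05H9.3, past whose end the thresholded peak of rank 76 lies, and ranked 211 and 3132. Ranks 187 and 198 lay near or in pseudogenes, with replicate ranks of 27070 and 62, and 1453 and 197.

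E-boxes were at 8 of 14 thresholded X summits (57.1%, 28.9 to 82.3) and at 33 of 101 autosomal ones (32.7%, 23.7 to 42.7), counted within 50 bp on both strands, which read alike for this palindromic pattern. In the top set of replicate 1 the shares were 47.1% on X and 35.7% on the autosomes, and in that of replicate 2 they were 33.3 and 40.6%, so the order turned between replicates. Over all pooled peaks E-boxes lay at 39.0 and 38.3%. A match is a description of the letters and not a bound site.

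CGCAGGG, a core of the sites that recruit the dosage compensation complex, lay at 1 of 14 thresholded X summits, the mom-1 peak, which holds it at 2 places, and at 0 of 101 autosomal ones (which allows up to 3.59%). Both strands were searched. Among the first 1000 pooled peaks it lay at 3 of 145 X peaks (2.07%, 0.429 to 5.93), of ranks 106, 440 and 578, and at 2 of 855 autosomal peaks (0.234%, 0.0283 to 0.842). In the first 1000 of replicate 1 alone it lay at 0 of 140 X peaks and 2 of 860 autosomal ones. In those of replicate 2 it lay at 2 of 151 (1.32%, 0.161 to 4.70) and 5 of 849 (0.589%, 0.191 to 1.37). Over all pooled peaks it lay at 0.270% of X and 0.258% of autosomal peaks. X as a whole holds 17.0 such words per Mb, within the 14.7 to 18.9 of the autosomes.

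Runs of 8 or more G, looked for after such a run was seen at rank 95, were more frequent at X peaks in all 3 lists. They lay within 50 bp of 69 of 5560 pooled X summits (1.24%, 0.967 to 1.57), while each autosome had 0.412 to 0.714%. In replicate 1 the shares were 0.993% on X and 0.557% on the autosomes, and in replicate 2 they were 1.16 and 0.498%. The sequence of X itself is richer in such runs, with 39.6 per Mb against 16.0 to 27.3 on the autosomes, and its part in the peak shares was not tested.

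**Figure D5:**
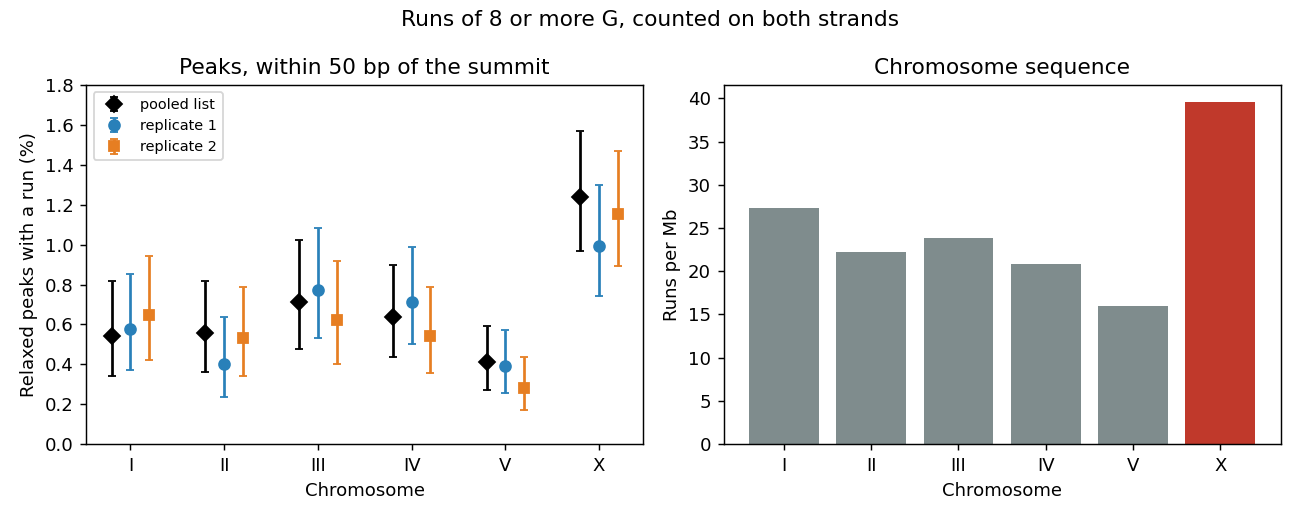
Left, share of relaxed peaks with a run of 8 or more G on either strand within 50 bp of the summit (y axis, percent) by chromosome, in the pooled list and each replicate, with exact 95% intervals. Right, number of such runs per Mb of chromosome sequence, where X stands highest at 39.6.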

How the data were processed

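ChIP-seq peak lists of 2 biological replicates (1 group) were used as the authors deposited them, on ce11. Per the deposited notes, relaxed lists were called for each replicate against a shared control and for both pooled. These lists are labelled as peaks and background. A thresholded list of 115 peaks was derived by the irreproducible discovery rate. Which aligner and caller were used is not given in the sources used here. Each peak's deposited signal is on an unstated scale that differs between lists, so it served only to rank peaks within a list. A deposited score, −log10 of an estimated q by the file format, goes below 0 where q exceeds 1. Read depth is unknown.

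Peaks were placed with the Ensembl 115 annotation of WBcel235 in the first class that applied, in the order promoter (protein-coding start window), tRNA gene start, other non-coding gene start, exon, intron, intergenic. Shares carry exact Clopper-Pearson 95% intervals (SciPy 1.17.1), and differences in recovery carry Newcombe 95% intervals. Both kinds treat peaks as independent and cover counting error only. Further copies are alignments from BLAST 2.17.0, not merged where they overlap. No test was run, since the design has no groups to compare. The genes named were those at thresholded X peaks, at the next 10 X peaks, and up to 6 list members with relaxed peaks, of which the text gives the best. The code was tested on simulated data. Peaks, lists and words were chosen with earlier results of these data known. The G run, the counts without CCTCTC and of both top sets by rank, and the sequences of ranks 81 and 106 were chosen after seeing the values.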

Additional observations from a re-analysis of the deposited data

How the results depend on the processing

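The share of thresholded peaks on X, 12.2%, was 3.45% among the first 58 and 5.26% (2 of 38) among those with an estimated q of 1 or less. The X share was 7.83 to 14.8% in the top sets of single replicates, which are not thresholded lists. Among thresholded peaks it was 11.7% for loci and 11.8% without further genome copies, these 2 settings being chosen after seeing the data. The promoter share of X thresholded peaks was 7.14% (1 of 14) with a start window of 500 and 100 bp and 28.6% with 2000 and 500 bp. That of X peaks in the top sets of single replicates was 11.1 to 35.3%. The promoter share of all pooled X peaks ranged from 8.53% with a window of 500 and 100 bp to 33.1% with 2000 and 500 bp. The median rank of X peaks was 15023.5 to 15381 in single replicates. The share of X peaks found in both replicates, 26.2%, was 17.7% within 50 bp, 36.6% within 200 bp and 43.5% where intervals shared 1 bp, and 44.9 to 70.8% were found in 1 replicate. Of the thresholded X peaks, 85.7 to 92.9% were found in 1 replicate. The difference from the autosomes was −0.931 points for pooled peaks found in both replicates. For the same peaks it was 1.64 when found in replicate 2 was enough, and −2.83 when found in replicate 1 was enough. The cause was not tested. The E-box share of 57.1% was 50 to 64.3% with windows of 25 and 100 bp. With 14 thresholded X peaks, every share of them is imprecise. No paired analysis was possible because the replicates form 1 group.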
